A study of Mus musculus with 15 samples.

Results

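The cytosolic ribosomal protein genes were followed through messenger RNA counts of extracellular vesicles (EVs) isolated from mouse blood. The genes were chosen by symbol alone: Rpl or Rps followed by a number and the usual suffixes, with Rplp0, Rplp1, Rplp2 and Rpsa added and symbols containing -ps left out. This rule took 90 of the 43472 gene symbols in the count tables, 52 with large subunit and 38 with small subunit symbols. Of these, 77 were the genes usually listed for the cytosolic ribosome (46 large and 31 small subunit genes, called canonical here). The other 13 were paralogs, like-named copies and 1 gene that only matches the pattern, Rps6kl1, a kinase-like gene with 0 reads in all 15 libraries. The rule leaves out Fau, whose ribosomal protein is made as a fusion with a ubiquitin-like protein, and Gnb2l1, an older symbol of the small subunit protein Rack1.

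The ribosome is built from a small subunit, which reads the messenger RNA, and a large subunit, which joins the amino acids, and each protein of a subunit is usually encoded by a single working gene besides many processed pseudogenes. Messenger RNAs of ribosomal proteins are short, abundant in most cells and commonly start with a C followed by a run of pyrimidines, the terminal oligopyrimidine tract, through which their translation is regulated together by growth signals. Platelets and reticulocytes, which lack a nucleus, still carry ribosomal protein messenger RNAs.

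The libraries came from 3 samples of WT (C57BL/6), 6 of dystrophic and 6 of hypertrophic mice, all 3 to 6 months old by the study's methods, which also state that vesicles of 2 to 3 mice were pooled for each sample. The dystrophic mice were Sgcb null and lack beta-sarcoglycan. The labels give the hypertrophic mice as MAGIC F1, which carry a Met-activating factor, whereas the methods give Mstn-null for the sequenced samples, so that the condition and not the genotype is named below. The labels name serum and the methods plasma as the source, and nothing in either ties a library to a cell type.

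Depth ranged from 27227 reads counted on genes in WT replicate 1 to 32563362 in dystrophic replicate 6. In 6 libraries (replicates 4 to 6 of the dystrophic and 1 to 3 of the hypertrophic mice) title and counts carry different library numbers, crossed between the conditions, so the main counts and shares are also given for the other 9 libraries (those with matching numbers) and with the conditions of the 6 exchanged. Mstn had 0 reads in every library. Sgcb had 695 reads in hypertrophic replicate 3 and 0 in all others, WT included, and the exchange would put these reads in an Sgcb null library. Ppbp, a platelet chemokine gene named after its values were seen, had 4857 to 8936 CPM (counts scaled so that every library has the same total on genes) in the 6 dystrophic and 11370 to 20308 CPM in the 6 hypertrophic libraries as labelled. It was the 1 gene of 6887 tested that was higher in hypertrophic-derived EVs without overlap (background 0.0145%), and with the exchange its ranges overlapped. Since Ppbp was named after this gap under the labels was seen, it cannot tell which labels are right. Sgcb cannot either, with reads in a single library and 0 in WT. Where the RNA came from was not known, and fewer vesicles of one kind and less of an RNA in each vesicle cannot be told apart in these libraries. Among the markers of blood cells, those of platelets and erythroid cells were the most abundant, with summed CPM of 9664 to 34025 for 8 platelet genes and 22933 to 155950 for 7 erythroid genes. Markers of skeletal muscle summed to 0 to 295 CPM, with Myh4 at 0 in all libraries.

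The start sites of the genes that the results below turn on are shown first, as windows of 15 bases before and 15 bases from the annotated start (RefSeq, assembly GRCm38.p6). Capitals mark a run of C followed by at least 6 further C or T bases, which was searched on the sense strand and, as a comparison, on the opposite strand. Rps6, a small subunit protein that is phosphorylated in growth signalling, is given as a textbook example of the tract, the next 4 genes are discussed for their levels, and Rplp0 and Rpl24 have no such run in this window.
Rps6, chr4:86857353-86857382, minus strand: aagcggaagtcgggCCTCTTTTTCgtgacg
Rps9, chr7:3704026-3704055, plus strand: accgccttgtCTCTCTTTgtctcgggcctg
Rpl13a, chr7:45128731-45128760, minus strand: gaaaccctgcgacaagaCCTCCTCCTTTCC
Rpl27a, chr7:109519180-109519209, plus strand: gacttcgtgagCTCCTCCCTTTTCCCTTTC
Rplp2, chr7:141447636-141447665, plus strand: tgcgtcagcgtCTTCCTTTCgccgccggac
Rplp0, chr5:115559452-115559481, plus strand: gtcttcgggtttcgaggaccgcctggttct
Rpl24, chr16:55966260-55966289, plus strand: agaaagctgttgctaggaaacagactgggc
Of the 77 canonical genes, 57 had a window in the RefSeq table, and 29 of these (50.9%) held such a run on the sense strand. Among all 27025 genes with a window the share was 16.4%. On the opposite strand the shares were 8.77% and 18.0%, so the share was higher on the sense strand in the ribosomal protein genes and nearly the same on both strands over all genes. Of the other genes known for the tract (elongation and initiation factors and Tpt1 among them), 3 of 11 held a run, and 1 of 19 ribosome biogenesis genes did. On the opposite strand 4 of 11 and 4 of 19 did, so neither list held more runs on the sense strand. The annotated start may lie some bases from the start used in the cells, so a window without a run says only that these letters are not in it.

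Ribosomal protein genes took between 4.52% and 13.9% of the counted reads. For WT the share was 4.52%, 7.23% and 13.9% in replicates 1 to 3, so the WT libraries spanned the whole range of the study. The 6 dystrophic-derived libraries lay close together, with a lowest share of 10.03%, a median of 10.7% and a highest of 12.4%. In hypertrophic-derived EVs the lowest share was 4.53%, the median 7.86% and the highest 10.5%. These values fell apart into replicates 1 to 3, at 4.78%, 6.43% and 4.53%, and replicates 4 to 6, at 10.4%, 10.5% and 9.29%. The 95% Wilson intervals, which cover counting error only, were at most 0.494 percentage points wide, in WT replicate 1. The interval of WT replicate 1 overlapped those of hypertrophic replicates 1 and 3.

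**Figure D1:**
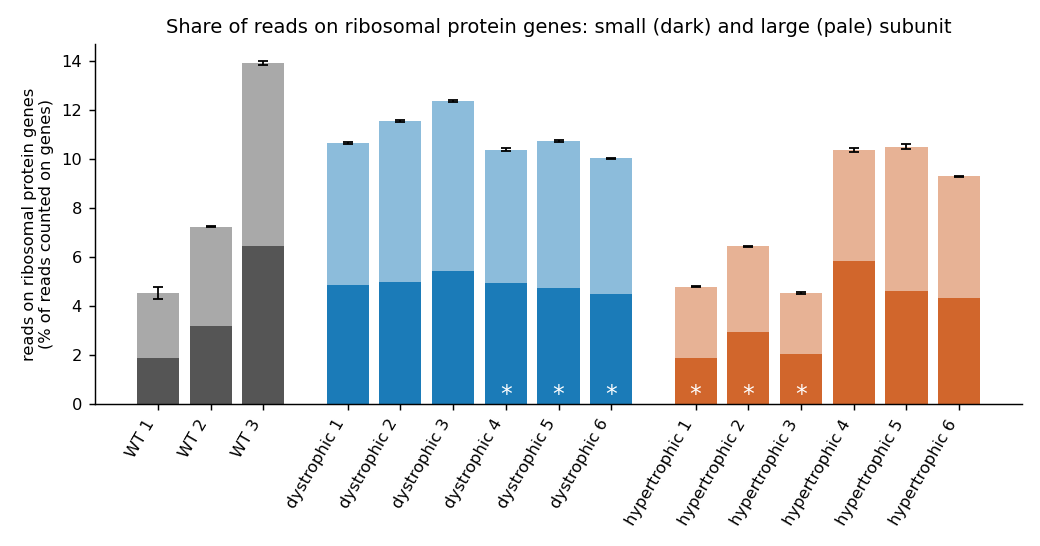
Share of reads on ribosomal protein genes in each library, in percent of the reads counted on genes, as stacked bars for small (dark) and large (pale) subunit symbols, with 95% Wilson intervals and a star on the 6 libraries whose title number is not that of their counts. The dystrophic libraries sit between 10.03% and 12.4%, whereas hypertrophic replicates 1 to 3 sit between 4.53% and 6.43% and replicates 4 to 6 between 9.29% and 10.5%.

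The WT libraries averaged 8.55% ± 4.83 (SD, n = 3), the dystrophic libraries 10.9% ± 0.851 (SD, n = 6) and the hypertrophic libraries 7.65% ± 2.74 (SD, n = 6). The difference of 2.40 points between dystrophic-derived and WT-derived EVs was smaller than the SD of the WT libraries, and so was the difference of -0.90 points between hypertrophic-derived and WT-derived EVs. The latter was 1.78 points without WT replicate 3 and -2.92 without WT replicate 1. The mean of hypertrophic-derived minus that of dystrophic-derived EVs was -3.30 points, with overlapping ranges. No test was made on this sum over genes chosen by name. The difference of -3.30 was carried by the libraries whose titles have the lower numbers. Within that series the mean was 5.25% ± 1.03 (SD, n = 3) for hypertrophic-derived and 11.5% ± 0.851 (SD, n = 3) for dystrophic-derived EVs, without overlap, and within the higher series it was 10.1% ± 0.659 (SD, n = 3) and 10.4% ± 0.348 (SD, n = 3), with overlap. Over the 9 libraries with matching numbers it was 10.1% ± 0.659 (SD, n = 3) for hypertrophic-derived and 11.5% ± 0.851 (SD, n = 3) for dystrophic-derived EVs, without overlap. By the numbers of their counts, all WT and dystrophic libraries as labelled were in the lower series and all hypertrophic ones in the higher. As labelled, and also among these 9 libraries, the hypertrophic condition and that series therefore cannot be told apart. If the 6 crossed libraries were given the condition that their counts' numbers point to, the direction turned, with 10.2% for hypertrophic-derived and 8.38% for dystrophic-derived EVs. The 3 low libraries were thus hypertrophic by their labels and would be dystrophic by the numbers of their counts. Which of these is right was not tested.

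The denominator held the mitochondrial and hemoglobin transcripts, which took 5.88% to 22.9% and 2.23% to 15.3% of the reads. Leaving both out of the denominator gave ribosomal protein shares of 5.24% to 8.41% in hypertrophic replicates 1 to 3 and of 11.3% to 13.5% in replicates 4 to 6, so the gap between these libraries was as wide without them. The dystrophic-derived libraries then ranged from 11.6% to 15.8%, and the WT-derived ones from 6.40% to 18.8%. The platelet genes summed to 22320 to 34025 CPM in hypertrophic replicates 1 to 3, to 15221 to 27314 CPM in replicates 4 to 6 and to 9664 to 20525 CPM in the dystrophic libraries. All 8 of them were detected in hypertrophic replicates 1 and 3 and 7 in replicate 2, and their part in the share of ribosomal protein reads was not tested.

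Almost all ribosomal protein genes were detected in at least 1 library. A read was counted for 85 of the 90 symbols, and the 5 at 0 throughout were Rpl3l, Rpl10l, Rpl39l, Rps12l1 and Rps6kl1. Rpl3l is known as a paralog of Rpl3 made in striated muscle, and Rpl10l and Rpl39l as copies used in the testis. All 77 canonical genes were detected somewhere, and 43 of them (22 large and 21 small subunit genes) in every library, including WT replicate 1. These 43 were 50.6% of the detected ribosomal protein symbols, whereas 169 of the 13281 genes detected in the series (1.27%) had a read in every library. The ribosomal protein genes were thus 25.4% of the genes seen in every library.

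The number detected per library followed depth only in part. It was 55, 82 and 83 in WT replicates 1 to 3, between 76 and 85 in the dystrophic libraries, and 80, 81, 71, 65, 63 and 81 in hypertrophic replicates 1 to 6. The mean was 73.3 ± 15.9 (SD, n = 3), 81.2 ± 3.43 (SD, n = 6) and 73.5 ± 8.29 (SD, n = 6). Without WT replicate 1 the difference between dystrophic-derived and WT-derived EVs turned from 7.83 to -1.33 genes, and that between hypertrophic-derived and WT-derived EVs went from 0.167 to -9 genes. A symbol had a read in every dystrophic library in 75 cases (88.2% of those detected) and in every hypertrophic library in 52 cases (61.2%). Over all genes detected in the series the shares were 3.80% and 2.11%. The depths were unlike, with at least 1170610 reads in each dystrophic library and 328710 in the shallowest hypertrophic one, and their part in this difference was not tested. The counts were 79 and 55 among the libraries with matching numbers, where the shares over all genes detected were 9.01% and 2.62%. With exchanged labels they were 70 and 55, with shares of 4.65% and 1.84% over all genes detected. WT replicate 3, with 601506 reads, held 83 of the genes, whereas hypertrophic replicate 4, with 451013 reads, held 65 and hypertrophic replicate 3, with 1906406 reads, held 71. Reduced to the 27227 reads of the smallest library, the number expected was 77.9 in WT replicate 3, 61.7 in hypertrophic replicate 4 and 64.0 in hypertrophic replicate 3, so these libraries differed as much at equal depth.

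**Figure D2:**
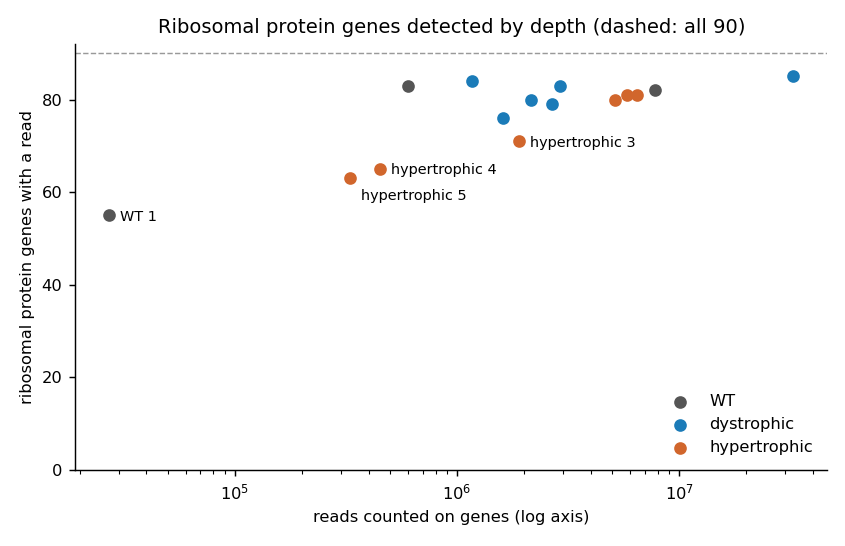
Number of ribosomal protein genes with at least 1 read against the reads counted on genes (log axis), 1 point per library, coloured by condition, with the 90 symbols as a dashed line. WT replicate 1 is both the shallowest and the lowest library (55 genes), and hypertrophic replicates 3 to 5 hold 63 to 71 genes, below other libraries of like depth.

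Zeros among the canonical genes were few and sat in a few libraries. Of the 1155 pairs of a canonical gene and a library, 65 (5.63%) had 0 reads. WT replicate 1 held 23 of them and hypertrophic replicates 3 to 5 held 35. In WT replicate 1 a count of 0 allows up to 110 CPM (3 reads), whereas in hypertrophic replicate 3 it allows 1.57 CPM, in replicate 4 6.65 CPM and in replicate 5 9.13 CPM, for counting error only. Outside WT replicate 1, 19 zeros fell on genes with a median of at least 500 CPM over the other libraries.

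Some of these zeros lay in genes with many reads in all other libraries. Rps3a1, a small subunit protein (chr3:86137940-86142702), was at 0 in hypertrophic replicate 3 and at 502 CPM or more in each of the other 14 libraries. Rpl26 was at 0 in hypertrophic replicate 5 and at 220 CPM or more elsewhere, and Rps16 was at 0 in hypertrophic replicate 4 and at 331 CPM or more elsewhere. Each of the 3 genes was at 0 in a different library. Rpl26, Rps16 and Rps4x were named after their values were seen. In WT replicate 1, the stalk protein gene Rplp0 (chr5:115559467-115563727) was at 0 although no other library was below 1037 CPM, and Rps4x was at 0 although no other was below 1061 CPM, both above the 110 CPM that this depth allows. The methods state that low RNA concentrations made a preamplification necessary, and the part of that step in these zeros was not tested.

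**Figure D3:**
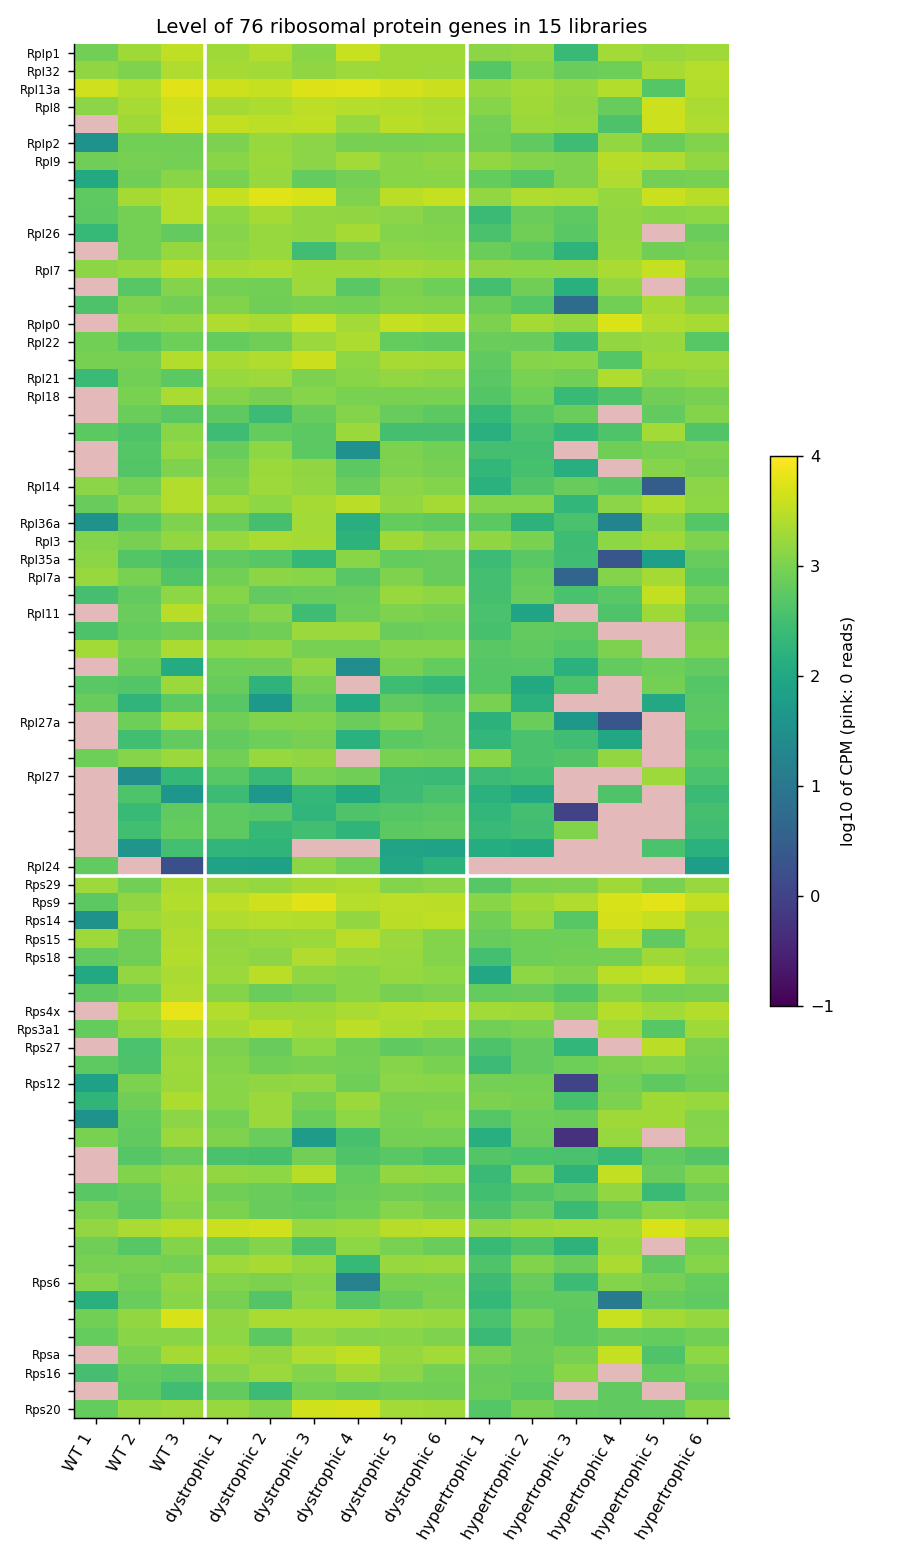
Level of 76 of the 77 canonical genes (rows, large subunit above the white line and small subunit below, each sorted by median CPM per kilobase) in the 15 libraries (columns), as the log10 of CPM, with 0 reads in pink and names on the rows of genes described in the text. The pink cells gather in WT replicate 1, in hypertrophic replicates 3 to 5 and in the row of Rpl24.

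Levels were compared between genes only per length, as CPM per kilobase of messenger RNA (the shortest complete principal transcript of GENCODE M21, build GRCm38). Over the 15 libraries the median level of the canonical genes ranged from 91.2 for Rpl24 to 4156 for Rps29, with a median of 1343 CPM per kilobase. Among the highest were Rps29 (4156), Rps9 (3969), Rps14 (3876), Rplp1 (3825), Rpl32 (3502), Rpl13a (3478), Rps15 (3411), Rpl8 (2703) and Rps18 (2388), of both subunits. The values of neighbours in this order lay well within the spread between libraries, where Rps29 alone went from 1295 to 6337 CPM per kilobase. The annotated Rps20 transcript of 3706 bases is the longest of the set and makes its level per kilobase low.

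Many windows of these genes also occur elsewhere in the transcriptome. In the median canonical gene, 55.5% of the 50-base windows also occur in another annotated transcript, and up to 98.6% for Rps27, and 47 of the 77 genes shared more than 50% of their windows. In all, 1090 annotated pseudogenes share a window with 76 of the 77 genes. Reads of 50 bases from such windows cannot be placed at a single site. The count tables keep alignments without a unique site on a line of their own, at 0.727 to 1.71 for each read counted on a gene. How many of them came from ribosomal protein genes is not known. Across the 77 genes, the median level and the share of windows in common with other transcripts had a Spearman correlation of -0.15, a description over genes that share libraries. Rows with an Rpl or Rps symbol containing -ps held at most 0.0881% of the reads of a library. Pseudogenes under other symbols are not in this sum.

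Large subunit symbols took more reads than small subunit symbols in 14 of the 15 libraries. The ratio of large to small subunit CPM was 1.41, 1.26 and 1.15 in WT replicates 1 to 3, had a lowest value of 1.09, a median of 1.24 and a highest of 1.31 in dystrophic-derived, and of 0.770, 1.204 and 1.52 in hypertrophic-derived EVs. The lowest was hypertrophic replicate 4, in which the small subunit took 5.85% and the large subunit 4.50% of the reads. The mean ratio was 1.28 ± 0.130 (SD, n = 3), 1.23 ± 0.0773 (SD, n = 6) and 1.19 ± 0.243 (SD, n = 6), and the ranges overlapped in each comparison. The difference between hypertrophic-derived and dystrophic-derived EVs turned from -0.04 to 0.05 without hypertrophic replicate 4, and that between dystrophic-derived and WT-derived EVs turned from -0.05 to 0.02 without WT replicate 1. Per gene and per length the order was the opposite, with a median of 1203 CPM per kilobase over the 46 large and of 1557 over the 31 small subunit genes. A read in every library was found for 47.8% of the large and 67.7% of the small subunit genes.

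The acidic stalk of the large subunit, made of Rplp0, Rplp1 and Rplp2, recruits translation factors to the ribosome. Rplp0 had 0, 1351 and 1553 CPM in WT-derived EVs, 2008, 2877 and 3744 CPM as lowest, median and highest values in dystrophic-derived and 1037, 2145 and 5095 CPM in hypertrophic-derived EVs. Every dystrophic library lay above every WT library for Rplp0, whereas the hypertrophic range overlapped both. Rplp1 had 845, 1923 and 3396 CPM in WT-derived, 1320, 1914 and 3835 CPM in dystrophic-derived and 229, 1615 and 2049 CPM in hypertrophic-derived EVs, with overlap throughout. Rplp2 had 36.7, 863 and 854 CPM in WT-derived, 959, 1029 and 1675 CPM in dystrophic-derived and 276, 813 and 1517 CPM in hypertrophic-derived EVs. Its dystrophic values were again all above the WT ones. Rpsa, a small subunit protein also known as a laminin receptor, had 0, 988 and 2161 CPM in WT-derived, 1520, 1976 and 3300 CPM in dystrophic-derived and 429, 955 and 3592 CPM in hypertrophic-derived EVs, with overlap.

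Differences between conditions were tested gene by gene with edgeR (quasi-likelihood) fitted to the whole table, where 82 of the 90 symbols, the 77 canonical genes among them, passed the filter on low counts and 6887 genes were tested. None of the 82 passed an adjusted p of 0.05 in any comparison. Over all genes tested the spread was wide, with a biological coefficient of variation of 3.04, and its part in this result was not tested. The sources used here do not say that the libraries of a condition came from different mice, so the p-values measure only the spread between these libraries, which may be technical.

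Dystrophic-derived against WT-derived EVs gave 0 ribosomal protein genes at an adjusted p under 0.05 (background 0.0145% of all genes tested) and 0 at an unadjusted p under 0.05 (background 2.02%), by edgeR, and DESeq2 gave 0 at its adjusted threshold (background 21.1%). Fitted log2 fold changes were below 0 for 28 of 82 genes (background 29.9%), with a median of 0.18 against 1.38 over all genes tested. Without WT replicate 3, 4 genes were below 0, and without WT replicate 1, 55 were, with a median of -0.20. The background of both settings is not given, so these counts are not read as particular to the ribosomal protein genes. With the number series of the title as covariate 45 of 82 genes were below 0 (background 30.3%), with a median of -0.07. Among the 9 libraries with matching numbers 45 of 80 genes were below 0 (background 40%), and with exchanged labels 61 of 82 were (background 32.8%). Ranges did not overlap for 8 genes, all higher in dystrophic-derived EVs (background 0.479%): Rpl9, Rpl21, Rpl26, Rpl27, Rplp0, Rplp2, Rps9 and Rps16, of which Rpl21, Rpl26 and Rps16 are named after their values were seen. Of these 8, Rplp0 and Rpl27 were at 0 in WT replicate 1. The number was 13 among the libraries with matching numbers (background 4.57%) and 2 with exchanged labels (background 0.595%). Rps9, a small subunit protein (chr7:3703993-3706897), had 551, 1454 and 2690 CPM in WT-derived EVs and 2731, 3182 and 5858 CPM as lowest, median and highest values in dystrophic-derived EVs, where the ranges all but touched. It differed by 0.96 on the log2 scale (SE 0.83, adjusted p = 0.648, edgeR). For Rplp0 the difference was 1.31 (SE 0.94, adjusted p = 0.483, edgeR). Rpl9 had 808, 944 and 886 CPM in WT-derived EVs, against 1280, 1437 and 2017 CPM in dystrophic-derived EVs. Its adjusted p was 0.967 (edgeR), so the gap between the ranges did not pass the model's test.

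**Figure D4:**
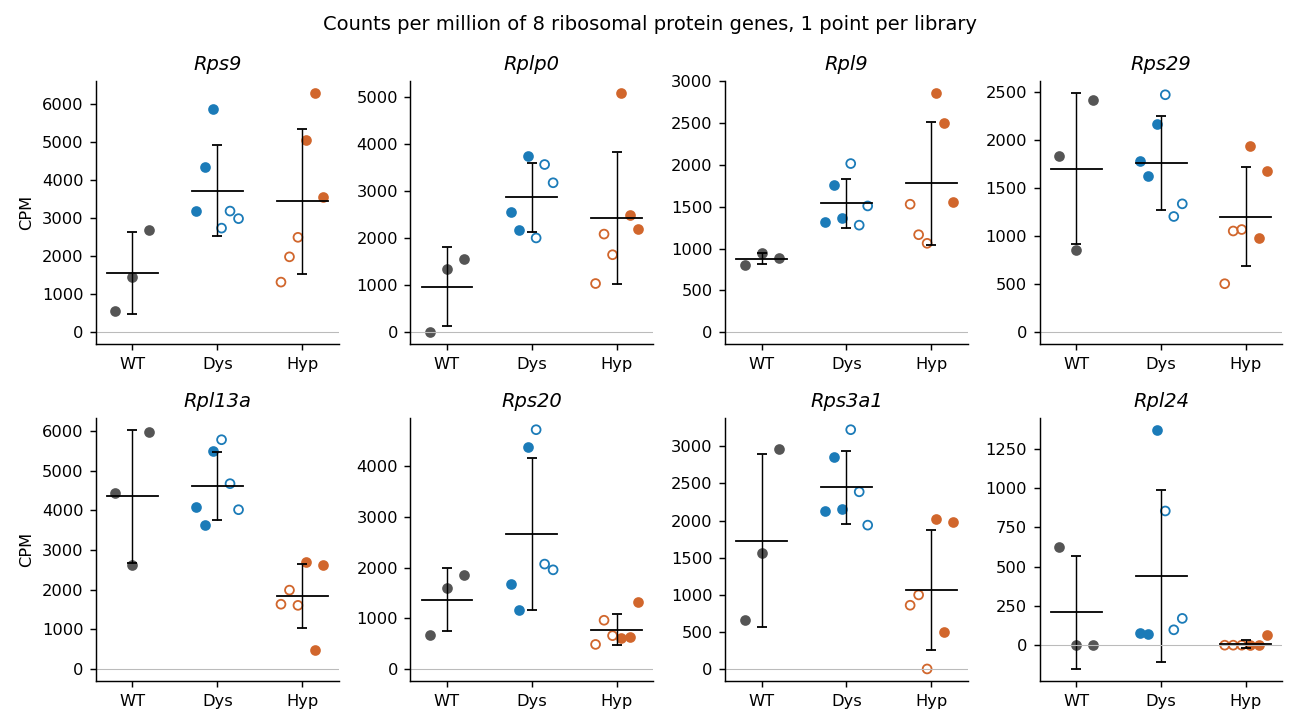
CPM of 8 ribosomal protein genes in WT, dystrophic (Dys) and hypertrophic (Hyp) libraries, 1 point per library, with the mean as a horizontal line and 1 SD as the bar. Open points are the 6 libraries with crossed numbers. All dystrophic points lie above all WT points for Rps9, Rplp0 and Rpl9, and all hypertrophic points lie below all dystrophic points for Rpl13a and Rpl24.

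Hypertrophic-derived against WT-derived EVs gave 0 ribosomal protein genes at an adjusted p under 0.05 (background 0.029%) and 1 at an unadjusted p under 0.05 (background 8.02%), by edgeR, and 0 at the adjusted threshold of DESeq2 (background 24.5%). The 1 gene was Rpl13a (chr7:45125558-45128761), a large subunit protein, changed by -1.49 on the log2 scale (SE 0.70, adjusted p = 0.430, edgeR). Log2 fold changes were below 0 for 71 of 82 genes (background 37.7%), with a median of -0.69 against 0.66 over all genes tested. With the size factors of DESeq2 and with library size alone, 51 genes were below 0 (background not given). Without WT replicate 3, 41 genes were below 0 and 40 above (background not given). Lacking a background, these counts are not read as particular to the ribosomal protein genes. Among the 9 libraries with matching numbers 62 of 80 were below 0 (background 52.2%), and with exchanged labels 39 of 82 were (background 33.6%). The ranges did not overlap only for Rpl9, which was higher in hypertrophic-derived EVs at 1063, 1545 and 2860 CPM (background 0.174%), and 4 genes were higher without overlap both among the libraries with matching numbers (background 0.77%) and with exchanged labels (background 0.145%). The next smallest p-values belonged to Rpl14, Rpl11, Rpl24 and Rpl27a, all large subunit genes with a mean below that of WT, each at an adjusted p of 0.430. The fitted difference of Rpl24 turned from -3.45 to 3.70 on the log2 scale without WT replicate 1. Rpl27a had 0, 801 and 2012 CPM in WT-derived and 0, 105 and 724 CPM in hypertrophic-derived EVs, which overlapped.

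Hypertrophic-derived against dystrophic-derived EVs gave 0 ribosomal protein genes at an adjusted p under 0.05 (background 0.0145%) and 4 at an unadjusted p under 0.05, all lower (background 11.4%), by edgeR, and 0 at the adjusted threshold of DESeq2 (background 5.17%). Log2 fold changes were below 0 for 80 of 82 genes (background 62.6%), for all 31 canonical small subunit genes and for 45 of the 46 large ones. The median was -0.86, against -0.52 over all genes tested. It was -0.49 with the size factors of DESeq2 and -0.47 with library size alone. The count was 70 of 80 among the 9 libraries with matching numbers (background 64.9%), but with the labels of the 6 crossed libraries exchanged the direction turned, with 12 genes below 0 and 70 above (background 53.6% below 0) and a median of 0.41. Within the higher series of titles, where the shares of reads overlapped, 76 of 80 genes were below 0. The background of this setting is not given, so the count is not read as particular to the ribosomal protein genes.

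Ranges in that comparison did not overlap for 3 genes, Rpl13a, Rpl18 and Rpl24, all large subunit genes and all lower in hypertrophic-derived EVs (background 0.145%). The number was 10 among the libraries with matching numbers (background 3.67%), these 3 included, and 0 with exchanged labels (background 0.029%). Rpl13a, which also acts outside the ribosome in silencing inflammatory messenger RNAs, had 490, 1810 and 2698 CPM as lowest, median and highest values in hypertrophic-derived EVs and 3642, 4376 and 5780 CPM in dystrophic-derived EVs. WT-derived EVs had 4444, 2619 and 5983 CPM, so 1 WT library lay at the top of the hypertrophic range. The fitted difference was -1.54 on the log2 scale (SE 0.61, unadjusted p = 0.0114, adjusted p = 0.129, edgeR). Rpl18, chosen after its values were seen, had 249, 619 and 929 CPM against 935, 978 and 1215 CPM in dystrophic-derived EVs, ranges that nearly touched.

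Rpl24 (chr16:55966275-55971435), a large subunit protein, had the lowest median CPM per kilobase of the canonical genes. Rpl29 had fewer reads over all libraries (6285 against 11552). Rpl24 was at 0 in 5 of the 6 hypertrophic libraries and at 61.7 CPM (399 reads) in replicate 6. In dystrophic-derived EVs it had 72.7, 134 and 1372 CPM as lowest, median and highest values, in WT-derived EVs 624, 0 and 1.66 CPM, the first from 17 reads. Its deepest zeros were in hypertrophic replicate 2 with 5800739 and WT replicate 2 with 7738568 reads, where 0 reads allow up to 0.517 and 0.388 CPM. Between hypertrophic-derived and dystrophic-derived EVs the fitted log2 difference was -4.94 (SE 2.11, unadjusted p = 0.0195, adjusted p = 0.188, edgeR). Other transcripts share 81.7% of its 50-base windows, 8 pseudogenes among them, and the part of reads placed elsewhere was not tested.

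Rps20 and Rps3a1, both of the small subunit, were next. Rps20 (chr4:3831334-3835665) had 484, 642 and 1314 CPM in hypertrophic-derived and 1162, 2014 and 4724 CPM in dystrophic-derived EVs, with 661, 1598 and 1852 CPM in WT-derived EVs, and the hypertrophic and dystrophic ranges overlapped by a single hypertrophic library. Its fitted difference was -1.87 on the log2 scale (SE 0.83, adjusted p = 0.224, edgeR). Rps3a1 had 0, 928 and 2027 CPM against 1938, 2272 and 3224 CPM, a fitted difference of -1.46 on the log2 scale (SE 0.80, adjusted p = 0.552, edgeR). In the comparison of hypertrophic-derived with dystrophic-derived EVs, all 7 erythroid genes tested were also below 0, against 2 of 8 platelet genes (background 62.6%). Of the erythroid genes, 1, Hbb-bs, passed the adjusted threshold (background 0.0145%). The number of all genes passing it was 0 with exchanged labels and 0 among the 9 libraries with matching numbers. It was also 0 without dystrophic replicate 1, 2, 4 or 5 and without hypertrophic replicate 1 or 6. The counts of the erythroid and platelet lists under the other labels are not given. The part of these cell types in the lower ribosomal protein counts was not tested.

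**Figure D5:**
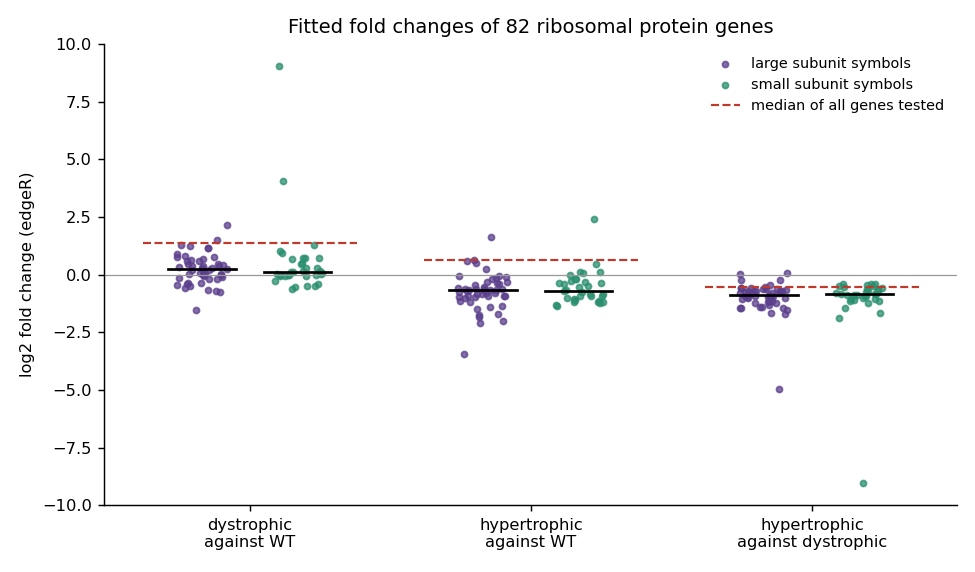
Fitted log2 fold changes (edgeR) of the 82 ribosomal protein genes tested, for large and small subunit symbols in each comparison, with the median of each as a black line and the median of all genes tested as a red dashed line. The ribosomal protein genes lie mostly near their medians of 0.18, -0.69 and -0.86, and the points at the edges of the plot are Rps4l, which is at 0 in all libraries of WT and hypertrophic mice.

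Ribosomal protein genes mutated in Diamond-Blackfan anaemia, in which red cell precursors fail, were read as a list. Of 16 such genes, 0 passed an adjusted p under 0.05 in any comparison and 0 passed an unadjusted p under 0.05. Log2 fold changes were below 0 for 7 in dystrophic against WT (background 29.9%) and for 14 in hypertrophic against WT (background 37.7%). They were below 0 for all 16 in hypertrophic against dystrophic (background 62.6%). The medians were 0.07, -0.79 and -0.82 in this order. Of all ribosomal protein genes tested, 80 of 82 were below 0 in the last comparison, so the list shows nothing of its own there. In hypertrophic against dystrophic, 13 were below 0 among the libraries with matching numbers (background 64.9%) and 1 with exchanged labels (background 53.6%). Their summed level was 7529, 10960 and 25137 CPM in WT-derived EVs and lay between 15023 and 18494 CPM in dystrophic-derived EVs. It was 6417 to 9680 CPM in hypertrophic replicates 1 to 3 and 14477 to 21997 CPM in replicates 4 to 6, the same split as for all ribosomal protein genes.

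Genes that work with the ribosome were read from lists. Of 17 translation factors and other genes with a terminal oligopyrimidine tract, all were tested and 0 passed the adjusted threshold in any comparison. Their fold changes were below 0 for 5, 10 and 16 genes in the 3 comparisons (background 29.9%, 37.7% and 62.6%), with medians of 0.36, -0.08 and -0.78. In the last of these comparisons 15 were below 0 among the libraries with matching numbers (background 64.9%) and 6 with exchanged labels (background 53.6%). Eef1a1, the elongation factor that brings aminoacyl-tRNA to the ribosome, had 4701, 8619 and 7669 CPM in WT-derived EVs, 3733 to 16481 CPM in dystrophic-derived and 4140 to 19649 CPM in hypertrophic-derived EVs. Of 24 ribosome biogenesis genes, most of which act in the nucleus and nucleolus, 18 were tested and 0 passed the adjusted threshold. None of the 24 was detected in every library. They summed to 764 to 2923 CPM in 11 libraries and to less in the other 4, with 0 in hypertrophic replicate 5. Fau was detected in every library at 6.08 to 1867 CPM and Gnb2l1 in 13 libraries at up to 3870 CPM.

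The paralogs and like-named copies were rare. Rpl22l1, a paralog of Rpl22, was at 0 in 5 libraries and reached 317 CPM, Rpl7l1 was at 0 in 7 and reached 358 CPM, and Rps27l was at 0 in 8 and reached 462 CPM in dystrophic replicate 4. Rpl36al, a copy of Rpl36a, reached 277 CPM. Rps4l, which GENCODE annotates as a transcribed processed pseudogene, had 25, 20 and 1411 reads in dystrophic replicates 1, 5 and 6 and 0 in the other 12 libraries. Its unadjusted p between hypertrophic-derived and dystrophic-derived EVs was 0.00734 (adjusted p = 0.123, edgeR), and no fold is given against a group at 0. The other copies, Rps3a2, Rps3a3 and Rps12l2, never exceeded 40 reads, and 0 of the 5 paralogs tested passed the adjusted threshold.

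Ribosomal protein genes varied less from library to library than most genes. The SD of log2 CPM over the 15 libraries had a median of 2.44 over the 82 genes against 3.43 over all genes tested, with 59 of 82 below the latter. Among genes present in every library the gap was small, 1.09 for the 43 ribosomal protein genes and 1.18 for all 169. Of these 43, the steadiest included Rpl9 (0.52), Rpl7 (0.58), Rpl22 (0.67) and Rps29 (0.76). The most variable of the 43 were Rps12 (2.75), Rpl14 (2.54), Rpl35a (2.48), Rpl36a (2.07) and Rpl7a (2.06), each of which fell below 40 CPM in at least 1 library. Rps12, for example, was at 1.05 CPM in hypertrophic replicate 3 and between 73.5 and 1749 CPM elsewhere.

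The order of the ribosomal protein genes by level was compared between libraries. Across the 85 detected symbols, the Spearman correlation between 2 libraries had a median of 0.698 for the 33 pairs of one condition and of 0.667 for the 72 pairs of different conditions. Within conditions it was 0.459 for the 3 WT, 0.779 for the 15 dystrophic and 0.636 for the 15 hypertrophic pairs. The range over all 105 pairs was 0.273 to 0.968. Pairs with WT replicate 1 were lowest, with a median of 0.442, and pairs with dystrophic replicate 1 highest, with a median of 0.805. The correlations run across genes measured in the same libraries and describe these libraries only.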

How the data were processed

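Bulk RNA-seq libraries of EVs from WT, dystrophic and hypertrophic mice were analysed from the raw counts of reads per gene symbol that the authors deposited without normalization. By the study's methods, pre-amplified RNA was sequenced as single reads of 50 bases and aligned with TopHat to mm10. The submitters' processing notes also list HTSeq and DESeq. The 5 summary lines of each table were left out. The ribosomal protein genes and all lists were chosen with earlier results of these data known. CPM used all gene rows as denominator. Detection meant at least 1 read. Shares, numbers detected and subunit ratios were not tested. Counts were tested with edgeR 4.0.16 (R 4.3.3, TMM, filterByExpr, quasi-likelihood, 1 model of 3 conditions, Benjamini-Hochberg adjustment over all genes tested), checked on simulated data. DESeq2 1.42.0 and other scalings, filters and labels were alternatives. Positions, lengths and shared 50-base windows came from GENCODE M21, with 89 of 90 symbols matched, and start windows from RefSeq GRCm38.p6. Genes were named by level per kilobase, zeros in at least 8 libraries, p-value, spread, the stalk with Rpsa, and paralogs, and others are marked where named. Matching-number and exchanged-label counts of detection, ranges and lists were added after seeing the data. Results of some single genes are not reported here. All pairs of libraries of a condition differed by more than sampling noise.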

Additional observations from a re-analysis of the deposited data

Results flagged for a closer look

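In 29 groups of 6 libraries, formed by the named genes and summary values in dystrophic-derived and hypertrophic-derived EVs, 6 values, from 5 libraries, stood apart from the others of their group by Dixon's test. Chance gives about 1 in 20 groups for normally distributed values, a rate that need not hold for CPM with zeros. In the 2 groups with 5 libraries at 0, any value above 0 in the sixth meets the test. Rplp0 had 5095 CPM in hypertrophic replicate 4 against 1037 to 2501 CPM in the other hypertrophic libraries. Rpl11, a large subunit protein that also binds the p53 regulator Mdm2, had 1938 CPM in hypertrophic replicate 5 against at most 594 CPM. Rpl27 had 1850 CPM in the same library against at most 384 CPM. Rpl24 had 61.7 CPM in hypertrophic replicate 6 and 0 in the other 5. Rps27l had 462 CPM in dystrophic replicate 4 against at most 94.5 CPM, and 193 CPM in hypertrophic replicate 2 against 0 in the other 5. Hypertrophic replicates 4 and 5 were the 2 shallowest libraries of their condition, with 451013 and 328710 reads.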

How the results depend on the processing

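The number of ribosomal protein genes at an adjusted p under 0.05 was 0 in all 3 comparisons under every alternative run, including DESeq2, other scalings and filters, exchanged labels and the omission of each library. The difference in read share between hypertrophic-derived and dystrophic-derived EVs (-3.30 points) was 1.83 with exchanged labels, -6.27 within the lower and -0.33 within the higher series of titles. Counting only genes with more than 50 reads, dystrophic-derived libraries held 25.5 and hypertrophic-derived ones 16.8 genes more than WT-derived ones, since only 3 genes passed in WT replicate 1. The subunit ratio of dystrophic minus WT was 0.092 from medians of CPM per kilobase. With exchanged labels, log2 fold changes turned for Rpl24 against WT (0.68) and, against dystrophic, for Rps4l (1.498), Rpl13a (0.43), Rpl24 (0.32), Rps20 (0.64) and Rps3a1 (0.63). The cause of these shifts was not tested.

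Leaving out 1 library at a time, the share differences ranged from 0.38 to 5.07 points (dystrophic minus WT), -2.92 to 1.78 (hypertrophic minus WT) and -3.87 to -2.67 (hypertrophic minus dystrophic). The differences in genes detected ranged from -1.33 to 12.7, -9 to 5 and -9.17 to -5.57, and those in the subunit ratio from -0.11 to 0.02, -0.15 to -0.004 and -0.10 to 0.05. The counts of genes called stayed at 0. The extremes against WT came without WT replicates 1 or 3, except for the subunit ratio of hypertrophic minus WT, where they came without hypertrophic replicates 1 and 4. The fitted fold change of Rpl24 between hypertrophic-derived and WT-derived EVs ranged from -11.3 without hypertrophic replicate 6, which leaves that condition at 0 reads, to 3.70 without WT replicate 1. No paired analysis was possible because the labels carry no replicate numbers, and those used here only name libraries. WT replicate 1 was the shallowest library. Reduced to its 27227 reads, the other libraries were expected to hold 61.7 to 81.3 ribosomal protein genes, against its 55. The part of depth in its low values was not tested.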
